A study of Mus musculus with 8 samples.

Results

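A set of 9 genes widely used to mark astrocytes were followed in RNA-seq of Med23+/+ and Med23-/- iOLs. The set was chosen by name, with earlier results of these data known: Gfap, Aqp4, Aldh1l1, Slc1a2, Slc1a3, Gja1, Aldoc, Slc4a4 and S100b. These are 9 of the 24346 genes listed in the deposited table. iOLs, or immature oligodendrocytes, are oligodendrocyte precursor cells (OPCs) that have been switched to differentiate. OPCs came from mouse brains at postnatal day 7. The tissue was digested with papain, plates coated with BSL1 lectin removed endothelial cells and microglia, and CD140a-positive cells were then panned. The cells were grown in the mitogens PDGF-AA (10 ng/mL) and NT-3 (1 ng/mL), and all 8 libraries were taken after 1 day in 15 nM T3, the active thyroid hormone, with 10 ng/mL CNTF, a cytokine. The Med23-/- samples (4 libraries, labelled MED23KO) carried Med23 fl/fl and 1 copy of Olig1-Cre, and the Med23+/+ samples (4 libraries, labelled WT) were Med23 fl/fl without Cre, so floxed Med23 was shared by both groups. Olig1-Cre acts in the oligodendrocyte lineage, and whether other cells in the dishes had lost Med23 was not measured. Nothing in the labels says that libraries of 1 genotype came from separate animals or cultures, so the p-values below measure the spread between these samples, which may be technical.

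Astrocytes take up glutamate and potassium, move water and bicarbonate, pass small molecules between cells through gap junctions, and supply metabolites to neurons. The 9 genes serve these tasks or mark the cell: Gfap forms the filaments of the cytoskeleton, Aqp4 is the water channel of the endfeet, Gja1 is the principal gap junction protein, Slc1a2 and Slc1a3 carry glutamate, Slc4a4 carries sodium and bicarbonate, Aldoc and Aldh1l1 are enzymes of glycolysis and folate metabolism, and S100b binds calcium. Several of them are not exclusive to astrocytes. S100b is also made by oligodendrocyte lineage cells. CNTF, present in both genotypes here, is itself known to drive Gfap expression through Stat3 in neural precursors.

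Levels are FPKM, fragments scaled by transcript length and by the size of the library, as deposited. How the size of the library was set is not given in the sources used here. Differences are Med23-/- minus Med23+/+ in log2(FPKM + 1), tested by limma with Benjamini-Hochberg adjustment over the 12328 genes that averaged 1 FPKM or more. A gene was called at an adjusted p under 0.05. Adding 1 before the logarithm understates the change of low genes. Read counts were not used here, so depth is unknown. Spacing of the smallest FPKM put the worth of 1 read at 0.741 to 1 times that in Med23+/+ replicate 1. Between 15941 and 16469 genes were above 0 in a library. Med23 itself fell from 12.5 ± 0.225 to 8.26 ± 0.247 FPKM (SD, n = 4 libraries each), a log2 difference of -0.55 (limma adjusted p = 0.000353), and its libraries did not overlap. FPKM is taken over the whole gene, so transcripts that lack the deleted part are counted too.

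All 9 genes were tested. Of these, 3 fell in Med23-/- iOLs (S100b, Gfap and Aqp4), 1 rose (Slc1a2), and 5 were not called (Aldh1l1, Slc4a4, Aldoc, Slc1a3 and Gja1). Among all genes tested 30% were called, 15.9% higher and 14.1% lower. The 3 genes that fell also passed a 2-fold limit, which 1.75% of all genes tested did in that direction. The genes that fell had log2 differences between -2.83 and -1.29, and Slc1a2 rose by 0.67. The median over the 9 genes was -0.30, beside -0.01 over all genes tested. In bulk RNA, fewer cells of a type and less RNA per cell cannot be told apart. Gja1 passed the limit on low values through Med23-/- libraries alone, since its Med23+/+ mean was 0.959 FPKM.

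**Figure D1:**
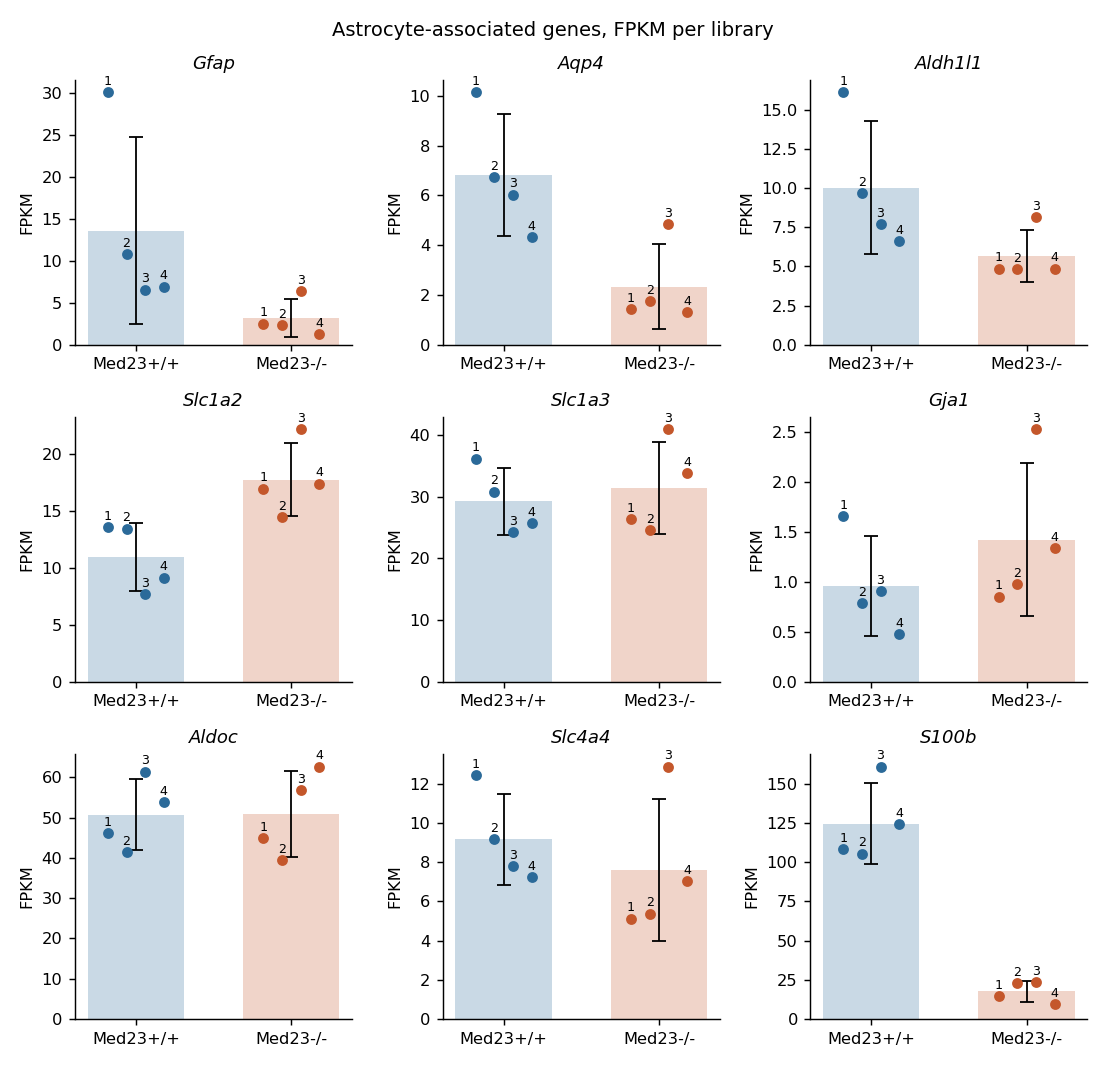
FPKM of each of the 9 genes in the 4 Med23+/+ (blue) and 4 Med23-/- (orange) libraries. Points are libraries numbered by replicate, bars are means and lines are ± 1 SD. S100b libraries lie between 105 and 161 FPKM in Med23+/+ and between 9.31 and 23.6 FPKM in Med23-/-, while Med23+/+ replicate 1 is the highest of its genotype for 7 of the 9 genes and Med23-/- replicate 3 for 8.

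The order of levels changed between genotypes. In Med23+/+ iOLs S100b was highest (mean 125 FPKM), followed by Aldoc (50.7 FPKM) and Slc1a3 (29.2 FPKM), and the libraries of S100b and Aldoc, and of Aldoc and Slc1a3, did not overlap. Next came Gfap (13.6 FPKM), Slc1a2 (11 FPKM), Aldh1l1 (10.0 FPKM), Slc4a4 (9.16 FPKM) and Aqp4 (6.81 FPKM), and each of these overlapped with its neighbours. Gja1 was lowest and lay apart from Aqp4. In Med23-/- iOLs Aldoc (50.9 FPKM) and Slc1a3 (31.4 FPKM) came first and overlapped. Slc1a2 (17.8 FPKM) followed and lay apart from Slc1a3, with S100b (17.5 FPKM) just under it. From Slc1a2 down to Gja1 (1.43 FPKM) every neighbouring pair overlapped. FPKM corrects for transcript length, so this order compares levels per length.

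Sequences upstream of 4 of the genes are shown because they hold the cases the comparison turns on: S100b and Gfap, which fell, Slc1a2, which rose, and Slc1a3, its close relative that was not called. Each is the 250 bases before the RefSeq transcription start on GRCm38.p6, the patch release of mm10, written 5′ to 3′ on the strand of the gene. Capitals mark matches, on either strand, to a GC-box (GGGCGG), a Sox site (ACAAT), a STAT site (TTCNNNGAA) or an NFI half-site (TTGGCA), the letters bound by factor families known in glial genes. The S100b window is chr10:76253586-76253835 (+), the Gfap window chr11:102897201-102897450 (-), the Slc1a2 window chr2:102706188-102706437 (+) and the Slc1a3 window chr15:8710808-8711057 (-).
S100b: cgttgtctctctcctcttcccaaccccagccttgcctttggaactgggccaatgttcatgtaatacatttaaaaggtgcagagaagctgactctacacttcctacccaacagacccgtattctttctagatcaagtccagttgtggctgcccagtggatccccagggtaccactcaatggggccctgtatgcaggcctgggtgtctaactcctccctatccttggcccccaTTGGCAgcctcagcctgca
Gfap: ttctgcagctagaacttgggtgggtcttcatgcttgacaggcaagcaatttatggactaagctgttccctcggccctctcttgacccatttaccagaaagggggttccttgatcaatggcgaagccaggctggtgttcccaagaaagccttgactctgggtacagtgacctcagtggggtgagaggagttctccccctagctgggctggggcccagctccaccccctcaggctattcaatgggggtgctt
Slc1a2: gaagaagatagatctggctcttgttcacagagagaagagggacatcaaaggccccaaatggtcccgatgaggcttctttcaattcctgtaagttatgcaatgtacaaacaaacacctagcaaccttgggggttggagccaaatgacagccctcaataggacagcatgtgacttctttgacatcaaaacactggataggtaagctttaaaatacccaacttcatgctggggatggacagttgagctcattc
Slc1a3: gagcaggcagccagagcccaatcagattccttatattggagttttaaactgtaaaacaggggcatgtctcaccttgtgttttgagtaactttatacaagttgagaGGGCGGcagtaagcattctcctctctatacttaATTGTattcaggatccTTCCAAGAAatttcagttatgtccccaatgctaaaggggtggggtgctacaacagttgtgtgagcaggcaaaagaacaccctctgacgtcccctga
The S100b window held 1 NFI half-site, the Slc1a3 window held 1 GC-box, 1 Sox site and 1 STAT site, and the Gfap and Slc1a2 windows held none of the 4 motifs. RefSeq gave 10 windows for 8 of the 9 genes. A GC-box was in 4 of the 10, a Sox site in 2, a STAT site in 2 and an NFI half-site in 2. Among all 32851 mouse windows of this length the shares were 32.7%, 27.7%, 7.02% and 12.3%. A match is a description of letters, and no match says only that these letters are not in this window. For Gfap and Slc1a2 the RefSeq start used lies inside the longer gene of GENCODE vM21.

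The filament gene and the endfoot genes were examined first. Gfap (ENSMUSG00000020932.14, chr11:102887336-102900912, minus strand) measured 30.0, 10.8, 6.56 and 6.91 FPKM in Med23+/+ replicates 1 to 4, and 2.51, 2.33, 6.40 and 1.23 FPKM in Med23-/- replicates 1 to 4. The genotypes did not overlap, but the lowest Med23+/+ library and the highest Med23-/- library were nearly level, and Med23+/+ replicate 1 stood well above the rest. Among all genes tested 31.6% had no overlap. Gfap fell from 13.6 ± 11.1 to 3.12 ± 2.26 FPKM (SD, n = 4 libraries each), with a log2 difference of -1.70 (SE 0.47, 95% interval -2.76 to -0.65, limma adjusted p = 0.0222). The size of the fall differed between replicates taken in pairs, behind which the labels name no batch. It was -2.48 (limma adjusted p = 0.00805) over replicates 1 and 2 and -0.93 (limma adjusted p = 0.296) over replicates 3 and 4. Without Med23-/- replicate 1 the call was lost at a difference of -1.68 (limma adjusted p = 0.0525).

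Aqp4 (ENSMUSG00000024411.10) measured 10.1, 6.75, 6.03 and 4.32 FPKM in Med23+/+ and 1.43, 1.76, 4.86 and 1.30 FPKM in Med23-/- replicates 1 to 4. Only Med23-/- replicate 3 reached into the Med23+/+ range, where it passed the lowest library. Aqp4 fell from 6.81 ± 2.44 to 2.34 ± 1.69 FPKM, a log2 difference of -1.29 (SE 0.31, 95% interval -1.98 to -0.60, limma adjusted p = 0.0120). The exact two-sided permutation test on the FPKM of this gene alone gave p = 0.0571, where 4 libraries against 4 allow no p below 0.0286. The difference was -1.84 over replicates 1 and 2 and -0.74 (limma adjusted p = 0.314) over replicates 3 and 4. Its relatives in the water channel family were low: Aqp1, Aqp3, Aqp5 and Aqp9 stayed under 1 FPKM in every library, and Aqp11, at 2.98 and 3.18 FPKM on average, was not called.

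Gja1 (ENSMUSG00000050953.10, chr10:56377330-56402513, plus strand) was the least expressed of the 9 genes. It measured 1.66, 0.787, 0.909 and 0.480 FPKM in Med23+/+ and 0.855, 0.977, 2.53 and 1.34 FPKM in Med23-/- replicates 1 to 4. The genotypes overlapped, and the log2 difference of 0.29 (95% interval -0.24 to 0.83, limma adjusted p = 0.391) covers changes in both directions. Gja1 made up 1.82% of the summed FPKM of the 5 connexin genes above 0.5 FPKM in Med23+/+ and 3.35% in Med23-/-. The bulk of that sum was Gjc3, a connexin known from oligodendrocyte lineage cells, with 91.6% and 68.1%. Gjb6, the other connexin typical of astrocytes, was listed at 0 in all 4 Med23+/+ libraries and reached 0.0383 FPKM at most in Med23-/-.

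Gfap was also set beside the other intermediate filament genes. Vim, the vimentin gene of immature glia, rose from 64.9 ± 13.3 to 195 ± 78.6 FPKM (log2 difference 1.51, limma adjusted p = 0.00163), and Nes, which encodes nestin, rose from 7.02 to 25.2 FPKM on average (1.67). Both had no overlap between genotypes. As a share of the FPKM summed over Gfap, Vim, Nes and Synm, Gfap took 31.5%, 13.5%, 9.45% and 6.81% in Med23+/+ replicates 1 to 4 and 1.31%, 1.61%, 2.94% and 0.354% in Med23-/-. The summed FPKM of these filament genes was 86.5 in Med23+/+ and 226 in Med23-/-, with Gfap moving against the sum. These shares, like those of the connexin, glutamate transporter, aldolase and S100 genes, were chosen after the values were seen and carry no test.

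The glutamate transporters did not move together. Slc1a2 (ENSMUSG00000005089.15, chr2:102658659-102790784, plus strand) measured 13.6, 13.5, 7.72 and 9.15 FPKM in Med23+/+ and 17.0, 14.5, 22.2 and 17.4 FPKM in Med23-/- replicates 1 to 4. Every Med23-/- library was above every Med23+/+ library. Slc1a2 rose 1.62-fold, from 11 ± 3.0 to 17.8 ± 3.21 FPKM (SD, n = 4 libraries each), with a log2 difference of 0.67 (SE 0.18, 95% interval 0.26 to 1.08, limma adjusted p = 0.0222). The rise differed between the same pairs of replicates. It was 0.20 (limma adjusted p = 0.321) over replicates 1 and 2 and 1.14 (limma adjusted p = 0.0144) over replicates 3 and 4. Leaving out 1 library ended the call in 3 cases. The difference was then 0.53 for Med23+/+ replicate 3 (limma adjusted p = 0.0525), 0.60 for Med23+/+ replicate 4 (limma adjusted p = 0.0612) and 0.56 for Med23-/- replicate 3 (limma adjusted p = 0.0555).

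Slc1a3 (ENSMUSG00000005360.14, chr15:8634124-8710764, minus strand) measured 36.2, 30.8, 24.3 and 25.7 FPKM in Med23+/+ and 26.3, 24.6, 40.9 and 33.9 FPKM in Med23-/- replicates 1 to 4. The genotypes overlapped over nearly their whole range, at 29.2 ± 5.41 and 31.4 ± 7.49 FPKM. The log2 difference was 0.09 (SE 0.17, 95% interval -0.30 to 0.48, limma adjusted p = 0.740). It was -0.38 over replicates 1 and 2 and 0.56 over replicates 3 and 4, neither of them called.

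Slc1a1, the glutamate transporter of neurons and of some oligodendrocyte lineage cells, was by far the highest of its family in these cultures. It fell from 233 to 74.5 FPKM on average, a log2 difference of -1.64 (limma adjusted p = 3.22e-05). The FPKM summed over Slc1a1, Slc1a2 and Slc1a3 therefore went from 273 ± 16.9 to 124 ± 13.5. Within that sum the share of Slc1a2 was 4.06% ± 1.21 in Med23+/+ and 14.4% ± 2.03 in Med23-/-, and that of Slc1a3 was 10.8% ± 2.18 and 25.4% ± 5.42. Slc1a1 kept the larger part in both genotypes, with 85.2% ± 3.34 and 60.2% ± 7.33. No share overlapped between genotypes.

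**Figure D2:**
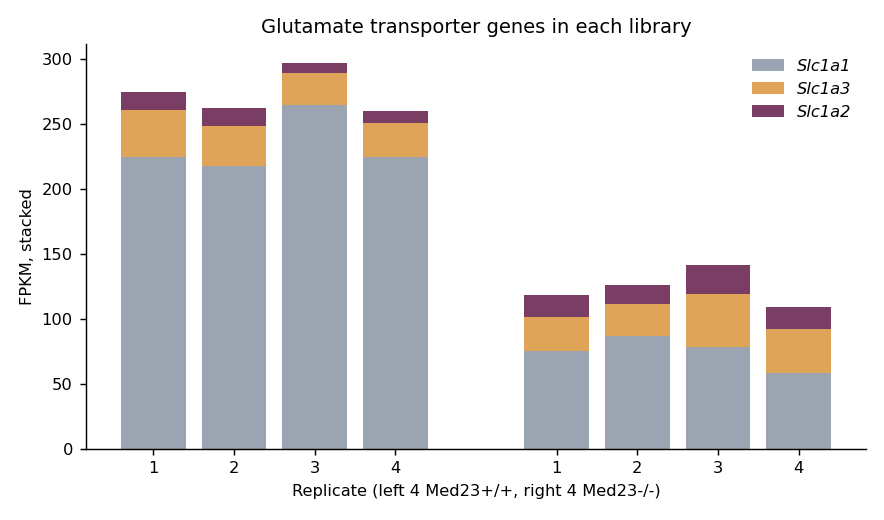
FPKM of Slc1a1, Slc1a3 and Slc1a2 stacked for each of the 8 libraries, Med23+/+ at left and Med23-/- at right. The stacks reach 259 to 296 FPKM in Med23+/+ and 109 to 141 FPKM in Med23-/-, and the grey Slc1a1 part accounts for the drop.

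The metabolic and ion transport genes gave no call. Aldh1l1 (ENSMUSG00000030088.15, chr6:90486427-90600203, plus strand) measured 16.1, 9.68, 7.71 and 6.60 FPKM in Med23+/+ and 4.86, 4.83, 8.16 and 4.86 FPKM in Med23-/- replicates 1 to 4. Apart from replicate 3, the Med23-/- libraries were almost level and lay below all Med23+/+ libraries. The log2 difference was -0.68 (SE 0.25, 95% interval -1.23 to -0.13), and the limma adjusted p of 0.0634 missed the threshold. It passed once Med23-/- replicate 3 (-0.84, limma adjusted p = 0.0333) or Med23+/+ replicate 4 (-0.84, limma adjusted p = 0.0385) was left out, and under quantile normalization (-0.76, limma adjusted p = 0.0444). It also passed over replicates 1 and 2 (-1.21, limma adjusted p = 0.0132), and was -0.15 (limma adjusted p = 0.710) over replicates 3 and 4. Aldh1l2, its mitochondrial relative, rose by 0.30 (limma adjusted p = 0.0237).

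Slc4a4 (ENSMUSG00000060961.14, chr5:88886818-89239653, plus strand) measured 12.4, 9.16, 7.81 and 7.24 FPKM in Med23+/+ and 5.11, 5.38, 12.9 and 7.03 FPKM in Med23-/- replicates 1 to 4. Med23-/- replicate 3 was the highest of all 8 libraries and the other Med23-/- libraries were below every Med23+/+ library. The log2 difference of -0.30 (95% interval -0.87 to 0.27, limma adjusted p = 0.417) became -0.56 (limma adjusted p = 0.0480) without that library, -0.90 (limma adjusted p = 0.0135) over replicates 1 and 2, and 0.31 over replicates 3 and 4. Slc4a10, another sodium-coupled bicarbonate transporter, rose from 1.55 to 4.0 FPKM on average (0.95).

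Aldoc (ENSMUSG00000017390.15, chr11:78322968-78327781, plus strand) was the closest in level between genotypes of the 9 genes. It measured 46.1, 41.4, 61.4 and 53.8 FPKM in Med23+/+ and 44.8, 39.4, 56.7 and 62.6 FPKM in Med23-/- replicates 1 to 4. Means of 50.7 ± 8.8 and 50.9 ± 10.6 FPKM left a log2 difference of -0.00 (SE 0.16, 95% interval -0.36 to 0.36, limma adjusted p = 0.998). Aldoa, the ubiquitous aldolase, fell by 0.34 (limma adjusted p = 0.0171). The share of Aldoc in the FPKM of both aldolases was 19.3% ± 3.39 and 23% ± 2.25, with overlapping libraries.

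S100b (ENSMUSG00000033208.7, chr10:76253853-76261159, plus strand) had the lowest log2 difference of the 9 genes. It measured 108, 105, 161 and 124 FPKM in Med23+/+ and 14.4, 22.7, 23.6 and 9.31 FPKM in Med23-/- replicates 1 to 4. The lowest Med23+/+ library was several times the highest Med23-/- library. S100b fell 7.12-fold, from 125 ± 25.6 to 17.5 ± 6.85 FPKM, a log2 difference of -2.83 (SE 0.26, 95% interval -3.41 to -2.24, limma adjusted p = 9.17e-05). It was called in all 19 alternatives run, with differences between -3.16 and -2.49. Other S100 genes fell too: S100a6 by 2.01, S100a13 by 1.51 and S100a16 by 1.04 on the log2 scale, and S100a1 from 111 to 38.7 FPKM on average, whereas S100a4, S100a10 and S100a11 were not called. S100b was 31.1% of the FPKM of S100b, S100a1, S100a6, S100a13 and S100a16 in Med23+/+ and 13.8% in Med23-/-.

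**Figure D3:**
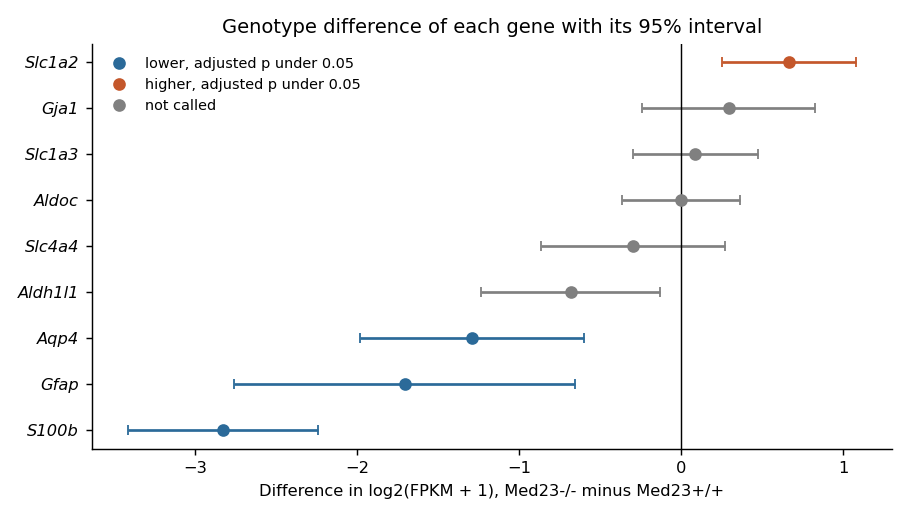
Difference in log2(FPKM + 1) of each of the 9 genes, Med23-/- minus Med23+/+, with its 95% interval from limma. The intervals of S100b, Gfap, Aqp4 and Slc1a2 lie clear of 0 and the genes are called, that of Aldh1l1 (-1.23 to -0.13) also lies below 0 but its adjusted p of 0.0634 missed the threshold, and the other 4 intervals hold 0.

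Covariation was then taken within genotype, as the correlation of the deviations of log2(FPKM + 1) from the mean of each genotype over 8 libraries. Gfap, Aqp4, Aldh1l1, Slc1a2, Slc1a3, Gja1 and Slc4a4 deviated together. Their 21 pairs had Pearson r between 0.643 and 0.958 with a median of 0.860, and Spearman rho between 0.357 and 0.905 with a median of 0.738. These 7 genes were grouped after their values were seen. Over all 36 pairs of the 9 genes the median r was 0.737, and 21 pairs were above 0.6, the same 21. Among the pairs of all genes tested 11.3% were above 0.6 and the median r was 0.014. Gja1 with Slc4a4 (r = 0.958), Gfap with Aldh1l1 (0.955) and Slc1a3 with Slc4a4 (0.937) were the closest pairs.

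The test of single pairs was weak. Over all 36 pairs of the 9 genes, permuting libraries within genotypes gave an unadjusted permutation p under 0.05 for r in 16. None was under 0.05 after Benjamini-Hochberg adjustment over the 36 pairs, with the lowest adjusted p at 0.05 for r (permutation, 8 libraries) and 0.125 for rho (permutation, 8 libraries). For Gja1 with Slc4a4, r had a permutation p of 0.00521 and an adjusted p of 0.05, and rho was 0.857 with a permutation p of 0.0174 and an adjusted p of 0.161. With the 2 libraries farthest from the median of the first gene of each pair left out, the median r of the 21 pairs went down to 0.523, over a range of -0.380 to 0.909, and 17 stayed above 0. Leaving out the farthest libraries also narrows the range over which r is taken. Without these libraries r went below 0 for Gfap with Slc1a3 (-0.132), Gfap with Gja1 (-0.380), Gfap with Slc4a4 (-0.195) and Aqp4 with Slc1a3 (-0.018). Some other pairs stayed above 0 but became weak, among them Aqp4 with Slc4a4 (0.915 to 0.255) and Aqp4 with Slc1a2 (0.683 to 0.249). Pairs with an r above 0.8 among the remaining 6 libraries were Slc1a3 with Slc4a4 (0.909), Slc1a2 with Slc1a3 (0.861), Aqp4 with Aldh1l1 (0.830), Slc1a2 with Gja1 (0.821) and Slc1a2 with Slc4a4 (0.817), which were picked for this value. Over all 8 libraries, r had been 0.643 for Slc1a2 with Gja1 and 0.761 for Slc1a2 with Slc4a4.

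Aldoc and S100b stood outside over all 8 libraries. The median r of Aldoc with the other 8 genes was -0.065 (range -0.289 to 0.270), and that of S100b was 0.092 (range -0.269 to 0.405). With 2 libraries left out of each pair as above, r ran from -0.945 to 0.931 for Aldoc (median 0.144). For S100b it ran from -0.921 to 0.931 (median -0.116). Aldoc with S100b went from -0.108 to 0.931, so these values depend on the libraries kept. Aldoc was highest in Med23+/+ replicate 3 and Med23-/- replicate 4, and S100b was highest in replicate 3 of both genotypes. The 7 covarying genes were all highest in Med23+/+ replicate 1 and in Med23-/- replicate 3, although 4 of them were not called between genotypes.

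The libraries that were high for the 7 genes were also high for many other astrocyte genes. Of 25 further astrocyte genes tested, 20 were highest in Med23+/+ replicate 1, beside 26.5% of all genes, and 14 were highest in Med23-/- replicate 3, beside 25.1% of all genes. Within genotype, 12 of these 25 correlated with Aqp4 above 0.6, among them Mlc1 (r = 0.918), Pla2g7 (0.911) and Htra1 (0.909). Mlc1, a membrane protein of astrocyte endfeet, measured 14.8, 8.39, 5.40 and 5.24 FPKM in Med23+/+ and 6.17, 6.40, 14.5 and 7.06 FPKM in Med23-/-, the pattern of Slc4a4. With S100b, 2 of the 25 correlated above 0.6. S100b correlated above 0.6 with 5 of the 9 oligodendrocyte genes tested, among them Enpp6 (0.901), Tspan2 (0.857), Cnp (0.683) and Myrf (0.630), while Aqp4 did so with 0 of the 9. Among the pairs of all genes tested 11.3% were above 0.6, a share that 2 of 25 and 0 of 9 did not exceed. These 9 oligodendrocyte genes all fell in Med23-/- iOLs, with a median log2 difference of -1.75, beside 14.1% of all genes tested called lower. All these correlations share the 8 libraries and are given as a description.

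**Figure D4:**
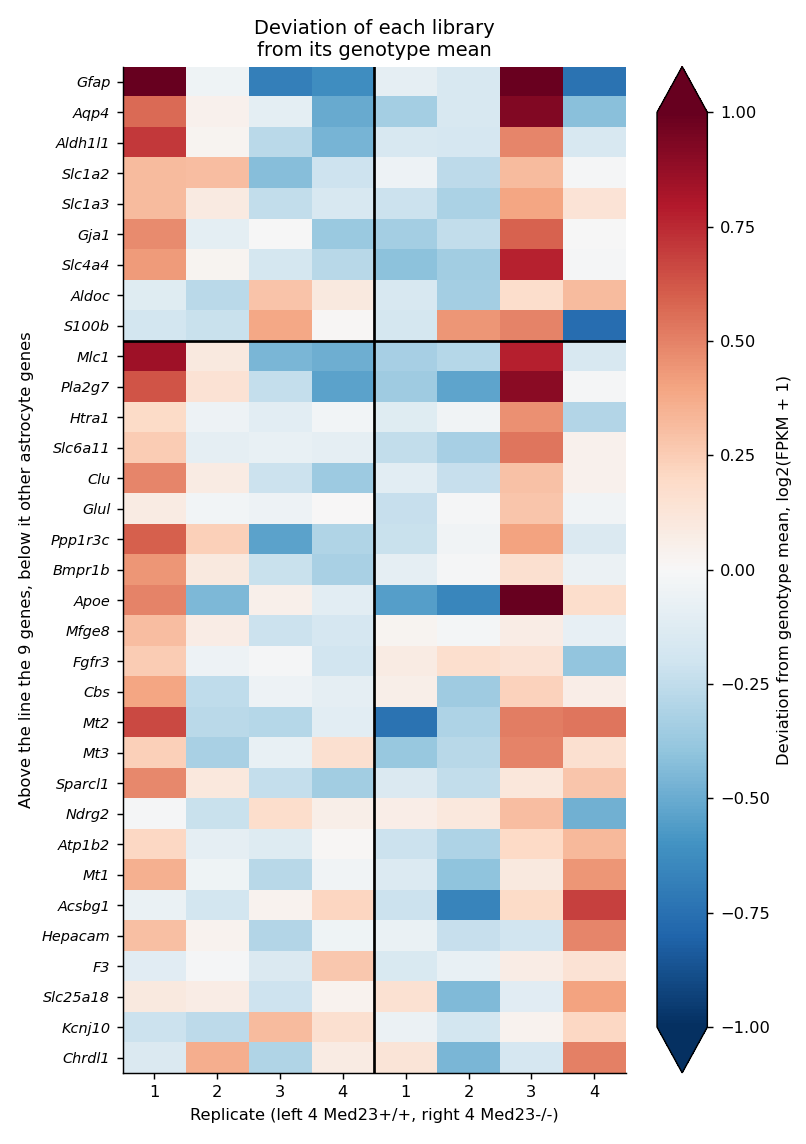
Deviation of log2(FPKM + 1) from its genotype mean for the 9 genes (above the line) and further astrocyte genes ordered by their correlation with Aqp4 (below it), one column for each library. Red is above and blue below the mean, with colours capped at ± 1. The columns of Med23+/+ replicate 1 and Med23-/- replicate 3 are red through the first 7 genes. Aldoc and S100b are below the mean in Med23+/+ replicate 1 (-0.118 and -0.183). In Med23-/- replicate 3 both are above it (0.176 and 0.493).

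Levels of other cell types were read beside this. Summed over 14 neuron genes, FPKM ran from 257 to 288 in Med23+/+ and from 384 to 484 in Med23-/-. Of the 13 tested, 11 rose, beside 15.9% of all genes tested, with Stmn2 (1.54) and Gad1 (1.47) highest. Med23-/- replicate 3 had the highest neuron sum, and Med23+/+ replicate 1 the second highest of its genotype at 283 FPKM. Gene by gene, 7 of the 13 were highest in Med23+/+ replicate 1, beside 26.5% of all genes. In Med23-/- replicate 3, 6 of the 13 were highest, beside 25.1% of all genes. Within genotype, 2 of the 13 correlated with Aqp4 above 0.6, beside 11.3% of all pairs of genes tested, the highest being Stmn2 (r = 0.794). The library pattern of the 7 covarying genes was thus shared by some neuron genes. For microglia, 10 of 12 genes stayed under 1 FPKM in every library, and the sums ran from 8.07 to 9.30 in Med23+/+ and from 9.72 to 12.7 in Med23-/-. For endothelium, 7 of 9 genes stayed under 1 FPKM in every library, and for ependyma 6 of 7. Sums over 9 mural cell and fibroblast genes ran from 1.85 to 11.6 in Med23+/+, highest in replicate 1, and from 3.89 to 18.4 in Med23-/-, highest in replicate 1. The part of these cells in the levels of the 9 genes was not tested. With the libraries highest in Aqp4 left out of each genotype (Med23+/+ replicate 1 and Med23-/- replicate 3), Gfap (-1.58), Aqp4 (-1.41) and S100b (-3.05) still fell, Slc1a2 (0.67) still rose, and Aldh1l1 (-0.61, limma adjusted p = 0.0179) fell as well. These libraries were picked by value and were also the highest for Gfap, Aldh1l1 and Slc1a2. Leaving them out can narrow the spread of these genes, so this refit is a description.

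The 25 further astrocyte genes split in both directions. Of 33 listed, 25 were tested, 7 rose, 4 fell and 14 were not called, with a median log2 difference of 0.02. Among all genes tested 15.9% were called higher and 14.1% lower. The highest were Slc25a18 (1.71), a mitochondrial glutamate carrier, and F3 (1.09), the tissue factor gene. The lowest were Fgfr3 (-2.05), a growth factor receptor shared by astrocytes and oligodendrocyte lineage cells, and Mt1 (-0.84), a metallothionein. Slc25a18 measured 8.02, 7.84, 6.28 and 7.64 FPKM in Med23+/+ and 29.6, 19.2, 24.3 and 35.2 FPKM in Med23-/-, without overlap. Glul, the glutamine synthetase gene, measured 96.7 ± 3.96 and 83.3 ± 12.4 FPKM and was not called. Slc7a10, Slc39a12, Ntsr2, Agt, Itih3 and Gjb6, all markers of mature astrocytes, stayed under 1 FPKM in every library. OPC genes were high by comparison, with Pdgfra, the CD140a gene used for panning, at 121 and 334 FPKM on average. They did not all move with Pdgfra. Of 11 OPC genes tested, 5 rose, 2 fell, Vcan (-0.81) and Sox10 (-0.49), and 4 were not called. Beside these counts stand the shares of 15.9% higher and 14.1% lower over all genes tested.

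**Figure D5:**
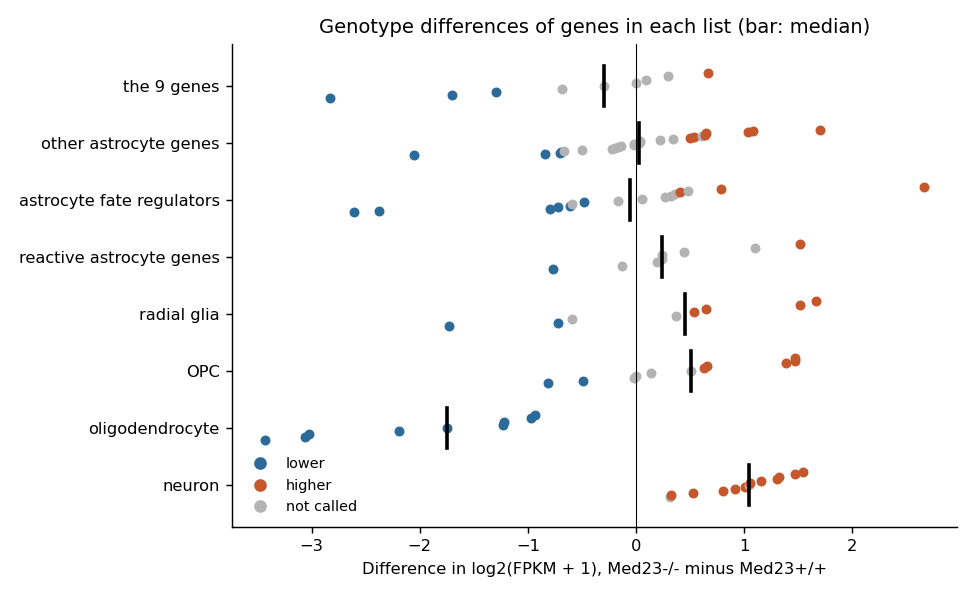
Difference in log2(FPKM + 1) of every gene tested in 8 lists, Med23-/- minus Med23+/+. Each point is a gene, orange when called higher, blue when called lower and grey when not called, and the black bar is the median of the list. The 9 genes and the further astrocyte genes lie on both sides of 0, whereas the oligodendrocyte genes lie below it and the neuron genes above it.

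Genes that set astrocyte fate moved unevenly. Of 16 tested, 3 rose, 6 fell and 7 were not called, with a median log2 difference of -0.06. The shares over all genes tested were 15.9% higher, near that of this list, and 14.1% lower. Sox9, a transcription factor needed for glial specification, rose from 6.68 ± 1.25 to 49.1 ± 16.3 FPKM (2.67), and Nfib rose by 0.79. Stat3, through which CNTF acts, rose from 32.5 to 43.3 FPKM on average (0.40). Id1 (-2.61) and Id3 (-2.38), targets of BMP signalling that hold back differentiation, fell most. Quantile normalization gave 6 rising in place of 3.

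Genes of the reactive state were mostly near 0. Of 33 listed, 22 stayed under 1 FPKM in every library and 8 were tested. Vim rose, Fbln5, an extracellular matrix protein, fell from 1.68 to 0.584 FPKM (-0.77), and 6 were not called. Steap4, Gbp2 and Slc10a6 were listed at 0 in all 8 libraries. Serpina3n measured 0.546, 0.560, 0.858 and 0.596 FPKM in Med23+/+ and 7.27, 5.69, 0.779 and 0.532 FPKM in Med23-/-. Of 8 radial glia genes tested, 4 rose, led by Nes (1.67) and Vim (1.51), and 2 fell, Tnc (-1.73) and Sox2 (-0.72). Of 26 tested relatives of the 9 genes, 9 rose, with Nes (1.67) and Gjd2 (1.55) highest, and 9 fell, with S100a6 (-2.01) and Slc1a1 (-1.64) lowest. Beside these counts, 15.9% of all genes tested were called higher and 14.1% lower. Vim and Nes stand on more than 1 of the lists.

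The genes whose levels followed a member most closely over all 8 libraries, genotype difference included, were sought among 9427 genes averaging 5 FPKM or more. For Gfap they were Mtg1 (r = 0.965), Gatc (0.959) and Mtfr1l (0.952). The nearest gene was Plekha1 for Aqp4 (0.978), Atp6v0c for Aldh1l1 (0.962), Kcnj6 for Slc1a2 (0.982), Pla2g7 for Slc1a3 (0.939), Ddx19b for Gja1 (0.927), Skap2 for Aldoc (0.978) and 3110035E14Rik for S100b (0.998). Of the genes named here, Pla2g7 is on the list of astrocyte genes. 3110035E14Rik fell by 1.07 on the log2 scale, less than S100b did. With 8 libraries and 9427 genes compared, a high r for the nearest gene is a description.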

How the data were processed

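RNA-seq was run on 8 libraries, 4 of each genotype. Per the study's methods and the submitters' processing notes, the authors' reads passed FastQC and Cutadapt before TopHat2 placed them on mm10, and Cuffdiff then quantified genes with bias and multi-read correction. Versions, annotation and library normalization are not given in the sources used here. The authors deposited FPKM per library, which were used here, and 0 library columns were left out. The deposited table also holds FPKM per genotype, log2 fold changes, test statistics, p-values and q-values of the authors' own comparison, none of which was used.

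Values were transformed to log2(FPKM + 1). Genes averaging 1 FPKM or more were fitted with limma 3.58.1 in R 4.3.3 (lmFit, eBayes with a mean-variance trend, no covariate). Single genes were also given an exact permutation p (two-sided, 4 libraries against 4), and pairs of genes one from 576 pairings within genotypes. Members and lists were chosen with earlier results of these data known. Genes named are the 9 members, Med23, the nearest gene by r of each member (3 for Gfap), and in each list the 2 highest and 2 lowest log2 differences among called genes, genes at 0 and the ends of ranges. A few further genes under this rule were left out of the text. Others (the astrocyte genes correlating most with Aqp4, the oligodendrocyte genes with S100b, Glul, Serpina3n, Stat3, Pdgfra, and the family genes other than the extremes) were chosen after their values were seen. Alternatives were a pseudocount of 0.1, other filters, quantile and median-ratio scaling, no trend, library weights, the replicate block, a 2-fold limit, replicates 1 and 2 or 3 and 4 alone, and leaving out each library. Leaving out the libraries highest in Aqp4 was added after seeing the data. On simulated data for this comparison, with 12281 genes fitted, limma called 48 of 50 genes lowered and 48 of 50 raised by a log2 of 1, and 6 of 12081 unchanged genes. The simulation drew the noise of each gene separately and changed a small part of the genes, none of them near 1 FPKM. It does not show how the fit does with library deviations shared between genes or with low genes. Coordinates are GENCODE vM21 and promoters RefSeq on GRCm38.p6. Python 3.11.15 was used for the tables.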

Additional observations from a re-analysis of the deposited data

Results flagged for a closer look

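Each of the 9 genes was examined in each genotype for a library far from the other 3, which made 18 groups of 4 libraries. Chance alone marks about 1 group in 20. In 2 groups a library stood apart by Dixon's test, and in both it was Med23-/- replicate 3. Aqp4 measured 4.86 FPKM there, against 1.30 to 1.76 FPKM in the other Med23-/- libraries. Aldh1l1 measured 8.16 FPKM there, against 4.83 to 4.86 FPKM in the others. Without this library Aqp4 fell by 1.60 on the log2 scale (limma adjusted p = 0.00153) and Aldh1l1 fell by 0.84 (limma adjusted p = 0.0333). The library was picked for its high values of these genes, so leaving it out must deepen their falls. The refits are therefore a description and no further test of the falls.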

How the results depend on the processing

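The count of 1 rising gene became 0 over replicates 1 and 2 alone and under the 2-fold limit, and ran from 0 to 1 when each library was left out (0 without Med23+/+ replicate 3, Med23+/+ replicate 4 or Med23-/- replicate 3). The count of 3 falling genes became 5 over replicates 1 and 2 alone and 1 over replicates 3 and 4 alone, and ran from 2 to 5 when each library was left out, with 5 without Med23-/- replicate 3 and 2 without Med23-/- replicate 1. Direction turned for genes that were not called: Slc1a3 was -0.38 over replicates 1 and 2 and -0.044 without Med23-/- replicate 3 (0.01 to 0.19 without each other library), Gja1 was -0.19 over replicates 1 and 2, Slc4a4 was 0.31 over replicates 3 and 4, and Aldoc was 0.10 under quantile normalization, 0.052 over replicates 3 and 4, and ran from -0.11 to 0.11 when each library was left out. The cause was not tested. No called gene turned direction under any alternative run. Same-numbered libraries did not deviate together (r = 0.13, -0.10, -0.03 and 0.16 for replicates 1 to 4), so the numbers were not taken as pairs. The fit with the replicate block gave 1 rising and 3 falling genes, and 6 rising fate regulators in place of 3. Of 144 list counts recomputed, 130 stayed within 1.5 times and 14 moved. Over all genes tested, calls ran from 1705 (replicates 1 and 2 alone) and 1772 (replicates 3 and 4 alone) to 4077 (library weights), beside 3695. The unknown depth limits Gja1 most, which is near 1 FPKM.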
